A study of Mus musculus with 12 samples.

Results

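The genes described here make sterols and fatty acids, or control the making of both. There are 29 of them, taken by name from the 18068 genes of the count table, and all 29 were found. They fall into 17 enzymes of the sterol pathway, 6 genes named the machinery here and 6 enzymes of fatty acid synthesis. The machinery takes in the sterol-sensing genes and Stard4, a sterol carrier. Each of the 29 passed the filter on low counts, which 13750 genes passed in all.

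RNA was sequenced from enteroids, which are epithelial cultures grown in a gel from intestinal stem cells, here from the ileum of wild-type C57Bl/6 mice. The 12 libraries formed 4 groups of 3: butyrate + IL-13, IL-13, butyrate and untreated. Butyrate, a bacterial fermentation product, was given at 1 mM for 48 h, and IL-13, a type 2 cytokine, at 20 ng/mL for 72 h. No group carried an engineered allele. The labels do not say whether the 3 libraries of a group came from separate mice or cultures, so each p-value measures the spread between these libraries, which may be technical.

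Cells make cholesterol from acetyl-CoA by way of mevalonate, isoprenoid diphosphates, squalene and lanosterol, and they make saturated and monounsaturated fatty acids from the same acetyl-CoA. Both pathways are switched on by the SREBP transcription factors, which are held in the endoplasmic reticulum by Scap and the Insig proteins while sterols are plentiful. When sterols fall, Scap carries SREBP to the Golgi, where it is cut, and the freed fragment enters the nucleus and raises the genes of these pathways. SREBP2, made from Srebf2, acts mainly on the sterol genes, and SREBP1c, made from Srebf1, mainly on the fatty acid genes. The small intestine is one of the main organs of cholesterol synthesis in rodents.

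Library totals ran from 13867982 to 24294456 counts, and the totals of the 6 libraries given IL-13 all lay below those of the other 6. All 7 epithelial markers were detected, with Epcam at 2063 to 2140.0 CPM in butyrate + IL-13, 1705 to 1769 CPM in IL-13, 1565 to 1755 CPM in butyrate and 1575 to 1671 CPM in untreated libraries. The 6 mesenchymal genes present in the table together gave at most 0.804 CPM, and the 6 immune genes 27.0 to 34.7 CPM; among these Csf1r had 14.2 to 19.7 CPM, Itgam 5.78 to 10.7 CPM and Ptprc, the pan-leukocyte marker, at most 0.721 CPM in a library. Cd68, a macrophage marker, had 5.19 ± 1.45 CPM with IL-13, against 2.49 ± 0.127 CPM untreated (SD, n = 3 each), and was called higher (log2 fold change 1.06 ± 0.25 (SE), edgeR adjusted p = 0.00201); its part in the results was not tested. A pair of libraries stood apart in Lars2, a mitochondrial tRNA synthetase gene, which had 6980.0 CPM in butyrate + IL-13 replicate 3 and 5046 CPM in butyrate replicate 2, against 423 to 1433 CPM in the other 10. Calls that ended without this pair are named below. Levels are given as CPM after TMM scaling, which sets libraries on a common scale by the bulk of their genes. In bulk RNA, a smaller number of cells of a type and less RNA per cell cannot be told apart.

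Promoters were compared because SREBPs bind a short element beside sites for the factors NF-Y and Sp1. RefSeq windows (GRCm38.p6) from 250 bases before to 50 after each start were found for 23 of the 29 genes, 5 of them with several starts. Fdps, Fdft1, Sqle, Stard4, Scd1 and Scd2 were not matched. Stretches of 100 bases, -190 to -91 from the start, are shown for 5 genes that carry motifs there and whose RNA levels are described below. Capitals mark a motif match on either strand. CACNCCA is the core of a sterol regulatory element and TCACNCCAC its longer form. CACGTG is the E-box. CCAAT, the site of NF-Y, reads ATTGG on the other strand. Sp1 binds GGGCGG.
Hmgcs1 (chr13:119690161-119690260, plus strand): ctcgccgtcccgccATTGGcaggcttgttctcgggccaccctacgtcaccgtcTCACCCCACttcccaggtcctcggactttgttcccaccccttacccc
Srebf2 (chr15:82147079-82147178, plus strand): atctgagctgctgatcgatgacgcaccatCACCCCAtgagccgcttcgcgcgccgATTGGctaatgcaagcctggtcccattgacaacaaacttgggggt
Acat2 (chr17:12960816-12960915, minus strand): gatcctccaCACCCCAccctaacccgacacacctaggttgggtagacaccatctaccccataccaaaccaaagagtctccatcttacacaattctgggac
Mvk (chr5:114444079-114444178, plus strand): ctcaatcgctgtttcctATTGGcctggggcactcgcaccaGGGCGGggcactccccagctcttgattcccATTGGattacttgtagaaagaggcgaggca
Insig1 (chr5:28071222-28071321, plus strand): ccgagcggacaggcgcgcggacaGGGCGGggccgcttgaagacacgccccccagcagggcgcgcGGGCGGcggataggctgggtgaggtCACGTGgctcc

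Of the 23 genes, 19 (82.6%) had CCAAT somewhere in a window, against 43.1% of the tested genes with a RefSeq window. GGGCGG was present in 18 of 23 (78.3%), against 67.7% of tested genes. CACNCCA was present in 5 of 23 (21.7%), namely Acat2, Hmgcs1, Insig1, Insig2 and Srebf2, against 21.1% of tested genes. The longer TCACNCCAC, which contains CACNCCA, was found in Hmgcs1 alone (4.35%), against 1.46% of tested genes. CACGTG was present in a window of 4 of 23 genes (17.4%), Dhcr7, Hsd17b7, Insig1 and Scap, against 11.8% of tested genes. Both strands were searched, and a match is a description of the letters, not a measured binding site.

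Per kilobase of exon in the GENCODE M21 models, Scd2 had the highest untreated level of the 29 genes, at 221 ± 43.4 CPM per kb (SD, n = 3). Hmgcs1 followed at 132 ± 7.13, Cyp51 at 117 ± 11.9 and Stard4 at 110.0 ± 8.88 CPM per kb, and neighbours among these 3 differed by less than the sum of their SDs. Insig1 had 78.7 ± 4.60 CPM per kb, Srebf2 59.9 ± 2.74 and Sqle 57.04 ± 4.06. Acaca was lowest, at 0.560 ± 0.0748 CPM per kb, below Fdps at 0.930 ± 0.0515. The 5 genes next above Fdps were Mvk, Scap, Tm7sf2, Idi1 and Ggps1, from 9.36 ± 1.08 down to 5.80 ± 0.872 CPM per kb. Fdps shares 1124 of its 4208 exonic bases with a same-strand gene model, and Tm7sf2 shares 532 with Vps51, so reads of either could have been split between models. Hmgcs1, Ggps1, Fdft1, Lss, Cyp51, Srebf1 and Elovl6 overlap exons on the opposite strand, and the sources used here do not say whether counting used strand. Scd1 and Scd2 are close paralogues whose reads can be hard to assign.

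**Figure D1:**
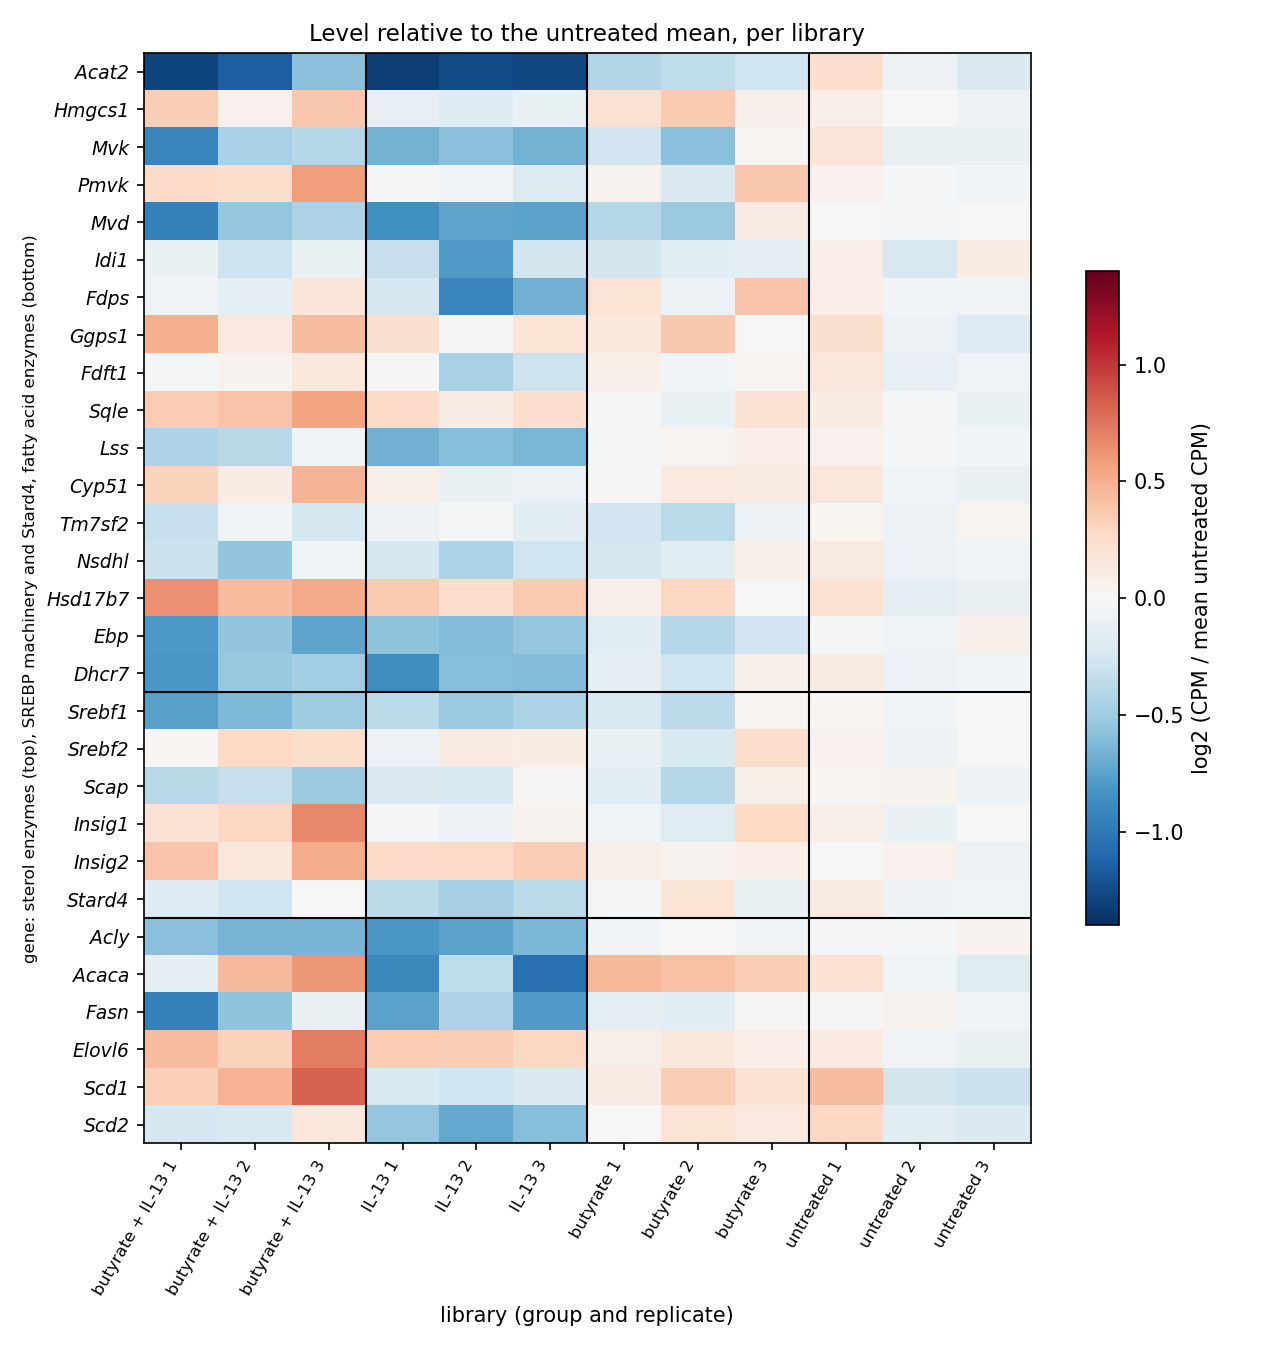
Level of each of the 29 genes (rows, in pathway order) in each of the 12 libraries (columns), as log2 of its CPM over the mean CPM of the 3 untreated libraries; blue is lower and red higher. Acat2, Mvd and Ebp are blue in all 6 libraries given IL-13, while Hsd17b7 and Elovl6 are red in those 6.

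The first comparison asked what IL-13 alone did to these genes. With IL-13, 15 of the 29 fell and 3 rose: among all 13750 tested genes 43.5% were called in this comparison, 21.7% lower and 21.8% higher. The deposited table holds the genes with a corrected p below 1 in the authors' own test of this comparison, so that background leaves out any gene above it. Of the 17 sterol enzymes, 9 were lower (52.9%) and 1 higher (5.88%). Of the 6 fatty acid enzymes, 4 were lower and 1 higher, and of the 6 machinery genes, 2 were lower and 1 higher. The median log2 fold change was -0.32 over the sterol enzymes, -0.07 over the machinery and -0.63 over the fatty acid enzymes, beside -0.01 over all tested genes. Called means an adjusted p under 0.05 in edgeR's quasi-likelihood test, with Benjamini-Hochberg adjustment across all tested genes. The SE of a fold change was derived from that test, as the absolute log2 fold change over the square root of its F statistic. Scaled by plain library totals instead of TMM, the median of all tested genes moved to -0.18 and that of the 29 to -0.49, and 0 of the 29 were called higher and 19 lower.

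At the start of the sterol pathway, Acat2, the cytosolic thiolase that joins 2 acetyl-CoA units, had 37.4, 39.1 and 38.3 CPM in IL-13 libraries, against 109, 88.7 and 80.7 CPM in untreated libraries. Every IL-13 library lay far below every untreated one, and Acat2 was 2.43-fold lower with IL-13 (log2 fold change -1.28 ± 0.14 (SE), edgeR adjusted p = 1.17e-06), the largest fall among the 29. Hmgcs1, which makes HMG-CoA in the next step, had 561, 537 and 563 CPM in IL-13 libraries, against 641, 604 and 576 CPM in untreated libraries. Its groups did not overlap, but it was not called (log2 fold change -0.13 ± 0.09 (SE), edgeR adjusted p = 0.269). Under plain library totals Hmgcs1 was called lower, at -0.30 (0.0115, over a range of 0.0115 to 0.534).

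Mvk, which puts the first phosphate on mevalonate, had 15.8, 16.7 and 15.9 CPM in IL-13 libraries, against 28.4, 23.3 and 23.4 CPM in untreated libraries. It fell (log2 fold change -0.64 ± 0.16 (SE), edgeR adjusted p = 0.00321), with no overlap between the groups. Mvd, the decarboxylase that ends the mevalonate steps, had 40.1, 43.6 and 43.4 CPM in IL-13 libraries, against 73.2, 72.1 and 72.9 CPM in untreated libraries. Both groups were tight and far apart, and Mvd fell by 41.7% (log2 fold change -0.78 ± 0.14 (SE), edgeR adjusted p = 0.000218). Between these steps Pmvk, the second mevalonate kinase, was at 58.8 to 66.5 CPM with IL-13 and 65.4 to 69.7 CPM untreated, and was not called (log2 fold change -0.08 ± 0.12 (SE), edgeR adjusted p = 0.634).

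Of the isoprenoid genes, Idi1, the isopentenyl diphosphate isomerase, fell to 15.7 ± 3.02 CPM with IL-13, against 21.2 ± 2.67 CPM untreated (SD, n = 3 each; log2 fold change -0.44 ± 0.14 (SE), edgeR adjusted p = 0.0177). The Idi1 call was lost without untreated replicate 1 (0.069), without untreated replicate 3 (0.0717) or without IL-13 replicate 2 (0.12), where the value in brackets is the adjusted p; over all alternatives it ran from 0.00192 to 0.12. Fdps, the farnesyl diphosphate synthase, was low in every library, at 3.32, 2.06 and 2.45 CPM with IL-13 and 4.16, 3.81 and 3.77 CPM untreated (log2 fold change -0.59 ± 0.23 (SE), edgeR adjusted p = 0.0419). The Fdps call was the least secure of the group: it was lost with no filter (0.0596), with libraries thinned to the lowest total (0.0514), without untreated replicate 1 (0.107), without untreated replicate 2 (0.0766), without untreated replicate 3 (0.0684), without butyrate replicate 1 (0.0548), without IL-13 replicate 2 (0.175) or without IL-13 replicate 3 (0.109), and over all alternatives its adjusted p ran from 0.00983 to 0.175. Ggps1, which makes geranylgeranyl diphosphate for protein prenylation, had 27.6 to 32.1 CPM with IL-13 and 24.2 to 32.02 CPM untreated and was not called (log2 fold change 0.14 ± 0.13 (SE), edgeR adjusted p = 0.401).

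From squalene onwards, Lss, which closes squalene epoxide into lanosterol, had 95.7, 101 and 97.9 CPM in IL-13 libraries, against 159.6, 149.8 and 149 CPM in untreated libraries. Its groups were apart, and it fell by 35.7% (log2 fold change -0.64 ± 0.09 (SE), edgeR adjusted p = 2.01e-05). Dhcr7, which performs the last reduction to cholesterol, had 64.3, 77.5 and 77.4 CPM in IL-13 libraries, against 128, 111 and 114 CPM in untreated libraries (log2 fold change -0.69 ± 0.11 (SE), edgeR adjusted p = 6.77e-05). Ebp, the sterol isomerase, had 31.4, 30.5 and 31.8 CPM with IL-13, against 45.9, 44.6 and 49.03 CPM untreated (log2 fold change -0.57 ± 0.10 (SE), edgeR adjusted p = 0.000119). All 3 genes fell with no overlap and kept their calls in every alternative run. Nsdhl, which acts in the removal of the C4 methyl groups, fell more modestly, with 45.8 ± 3.36 CPM with IL-13 and 57.3 ± 4.55 CPM untreated (SD, n = 3 each; log2 fold change -0.32 ± 0.12 (SE), edgeR adjusted p = 0.037). The Nsdhl call was lost without untreated replicate 1 (0.15), without untreated replicate 2 (0.0504), without untreated replicate 3 (0.0579), without IL-13 replicate 1 (0.0525), without IL-13 replicate 2 (0.15) or without IL-13 replicate 3 (0.067), and over all alternatives its adjusted p ran from 0.00197 to 0.15.

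Other enzymes of the same segment did not follow. Hsd17b7, the sterol 3-ketoreductase, had 125, 115 and 125 CPM in IL-13 libraries, against 112, 88.00 and 90.1 CPM in untreated libraries, and rose (log2 fold change 0.33 ± 0.10 (SE), edgeR adjusted p = 0.0147). The Hsd17b7 call was lost under plain library totals (0.203), without untreated replicate 2 (0.0864), without untreated replicate 3 (0.0718), without IL-13 replicate 1 (0.0509) or without IL-13 replicate 3 (0.0539), over a range of 0.00219 to 0.203. Sqle, the squalene epoxidase, had 339.6 to 381 CPM with IL-13 and 296 to 340.3 CPM untreated, and was not called (log2 fold change 0.20 ± 0.09 (SE), edgeR adjusted p = 0.0797), but was called higher in a fit of only the groups compared (0.013), without both Lars2-high libraries (0.0389) or without butyrate replicate 3 (0.0372), over a range of 0.013 to 0.755. Fdft1, the squalene synthase, had 32.7 to 44.1 CPM with IL-13 and 41.4 to 49.9 CPM untreated, and was not called (log2 fold change -0.24 ± 0.11 (SE), edgeR adjusted p = 0.0833); it was called lower under plain library totals (0.00481), in a fit of only the groups compared (0.048) or without IL-13 replicate 1 (0.0166), over a range of 0.00481 to 0.35. Cyp51, the lanosterol demethylase, had 505 ± 36.4 CPM with IL-13 and 516 ± 52.3 CPM untreated (SD, n = 3 each), a log2 difference of -0.03 ± 0.10 (SE). Tm7sf2, a sterol C14 reductase, differed by -0.09 ± 0.10 (SE) on the log2 scale, and neither was called (edgeR adjusted p = 0.808 for Cyp51 and 0.524 for Tm7sf2).

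**Figure D2:**
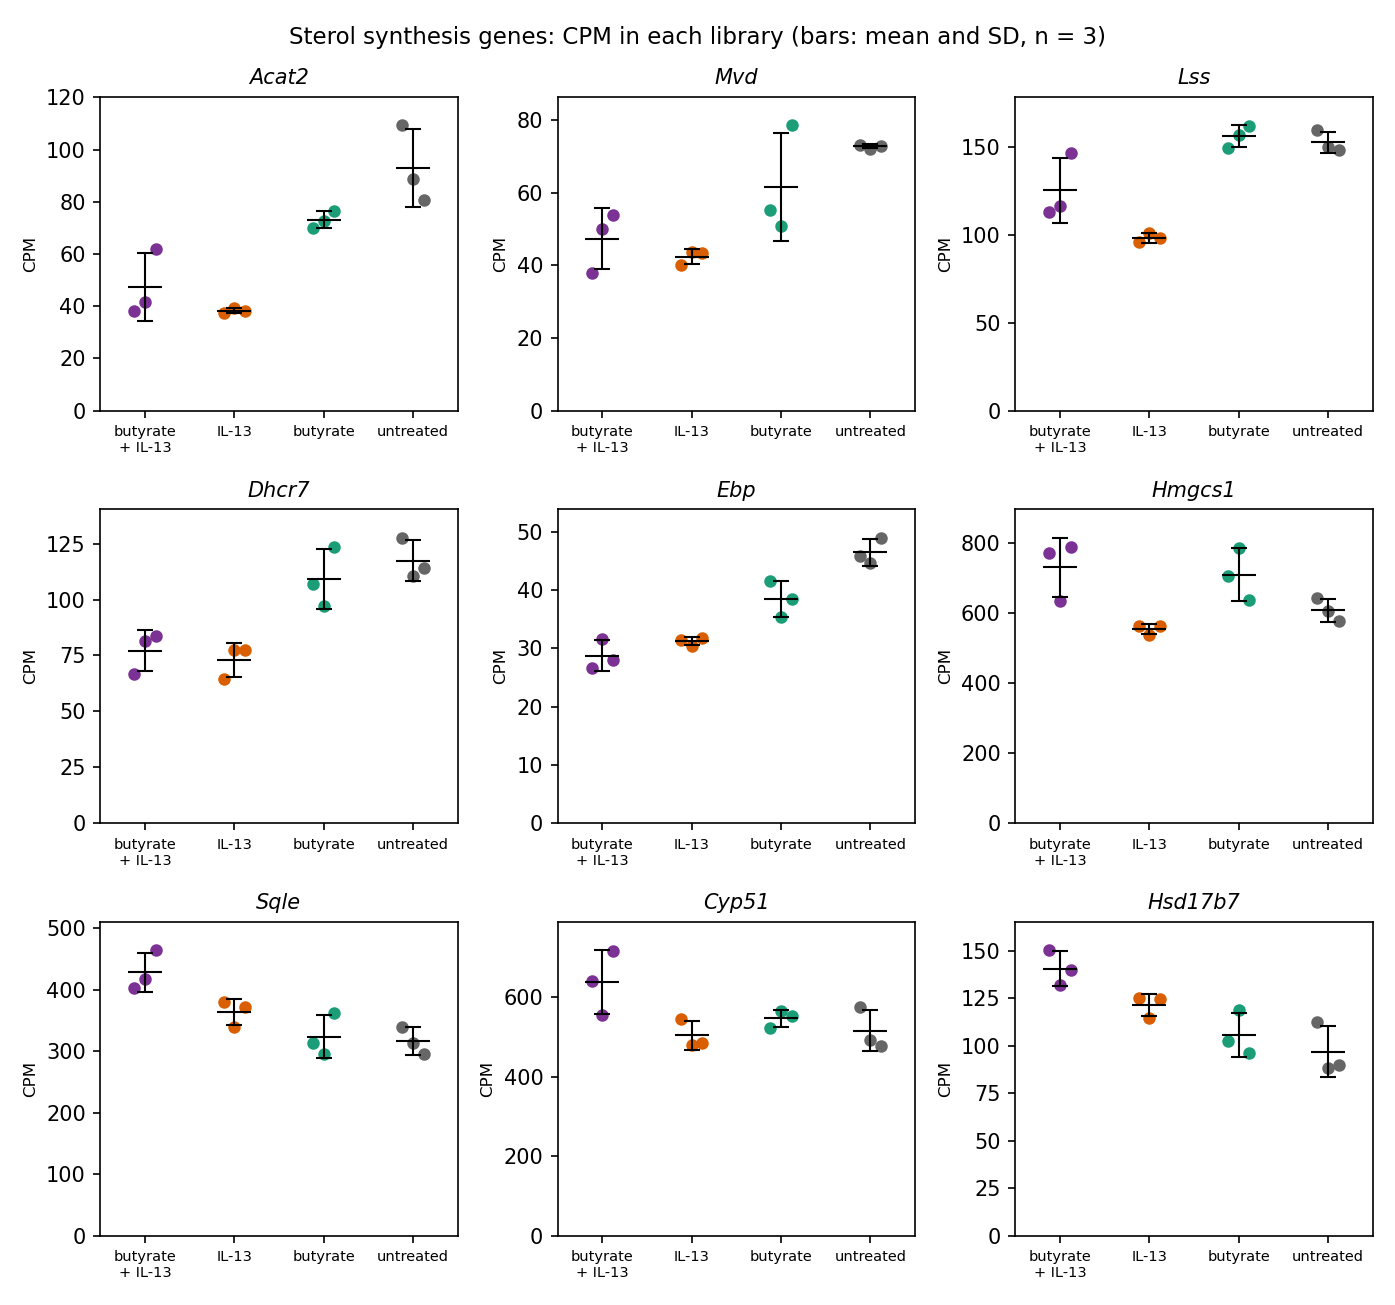
CPM of 9 sterol enzymes in each library (points), by group, with the mean and SD of 3 libraries (bars); every axis starts at 0. Acat2, Mvd, Lss, Dhcr7 and Ebp sit lower in both groups with IL-13 than in untreated enteroids, whereas Hmgcs1, Sqle, Cyp51 and Hsd17b7 have their highest group mean with butyrate + IL-13.

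In the machinery, Srebf1, the gene of SREBP1, had 67.2, 61.2 and 64.2 CPM in IL-13 libraries, against 89.4, 85.3 and 87.98 CPM in untreated libraries. It fell by 26.7%, with no overlap (log2 fold change -0.45 ± 0.10 (SE), edgeR adjusted p = 0.00131). Srebf2 had 408, 468 and 462 CPM with IL-13 and 450.4, 411 and 430.4 CPM untreated; its groups overlapped and it was not called (log2 fold change 0.05 ± 0.11 (SE), edgeR adjusted p = 0.727). Stard4, which carries cholesterol between membranes, had 472, 446 and 473 CPM with IL-13, against 672, 584 and 589 CPM untreated, and fell (log2 fold change -0.41 ± 0.09 (SE), edgeR adjusted p = 0.00178). Insig2 rose to 83.7 ± 2.71 CPM with IL-13, against 68.4 ± 3.37 CPM untreated (SD, n = 3 each; log2 fold change 0.29 ± 0.09 (SE), edgeR adjusted p = 0.0134). The Insig2 call was lost under plain library totals (0.25), without untreated replicate 3 (0.0644) or without IL-13 replicate 3 (0.0562), over a range of 0.00136 to 0.25. Its relative Insig1, itself a classical SREBP target, was at 241 ± 10.5 CPM with IL-13 and 243 ± 14.2 CPM untreated, and Scap at 60.01 ± 5.48 and 65.6 ± 3.20 CPM in the same order (SD, n = 3 each). Neither Insig1 (log2 fold change -0.02 ± 0.12 (SE), edgeR adjusted p = 0.923) nor Scap (log2 fold change -0.13 ± 0.11 (SE), edgeR adjusted p = 0.364) was called, and Scap was called lower under plain library totals (0.0343), over a range of 0.0343 to 0.622.

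Fatty acid synthesis begins with Acly, which splits citrate into cytosolic acetyl-CoA. Acly had 72.8, 76.5 and 82.6 CPM in IL-13 libraries, against 127, 126 and 133 CPM in untreated libraries. The 6 values formed separate, tight groups, and Acly fell by 39.8% (log2 fold change -0.73 ± 0.08 (SE), edgeR adjusted p = 3.98e-07). Acaca, the acetyl-CoA carboxylase that makes malonyl-CoA, had 5.12, 7.48 and 4.63 CPM with IL-13, against 10.97, 9.23 and 8.48 CPM untreated (log2 fold change -0.74 ± 0.20 (SE), edgeR adjusted p = 0.00687). Fasn, the synthase that builds palmitate, had 75.8, 94.9 and 73.9 CPM with IL-13, against 129, 132 and 123 CPM untreated (log2 fold change -0.65 ± 0.15 (SE), edgeR adjusted p = 0.00157). Acaca and Fasn thus fell with no overlap, and with Acly they kept their calls in every alternative run.

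The desaturases and the elongase differed from one another. Scd2, a stearoyl-CoA desaturase, had 831, 736 and 800.2 CPM with IL-13, against 1480.0, 1093 and 1049 CPM untreated, and fell by 34.7% (log2 fold change -0.61 ± 0.12 (SE), edgeR adjusted p = 0.000587). Its paralogue Scd1 had 129, 124 and 129.7 CPM with IL-13, against 203, 125 and 121 CPM untreated. Untreated replicate 1 stood above the other 5 Scd1 values, and Scd1 was not called (log2 fold change -0.23 ± 0.16 (SE), edgeR adjusted p = 0.245). It was called lower under plain library totals (0.0375), over a range of 0.0375 to 0.776. Elovl6, which extends palmitate to stearate, had 357, 352 and 339 CPM with IL-13, against 306, 269 and 259 CPM untreated, and rose (log2 fold change 0.33 ± 0.09 (SE), edgeR adjusted p = 0.00883). The Elovl6 call was lost under plain library totals (0.14) or without untreated replicate 3 (0.0519), over a range of 0.000206 to 0.14.

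**Figure D3:**
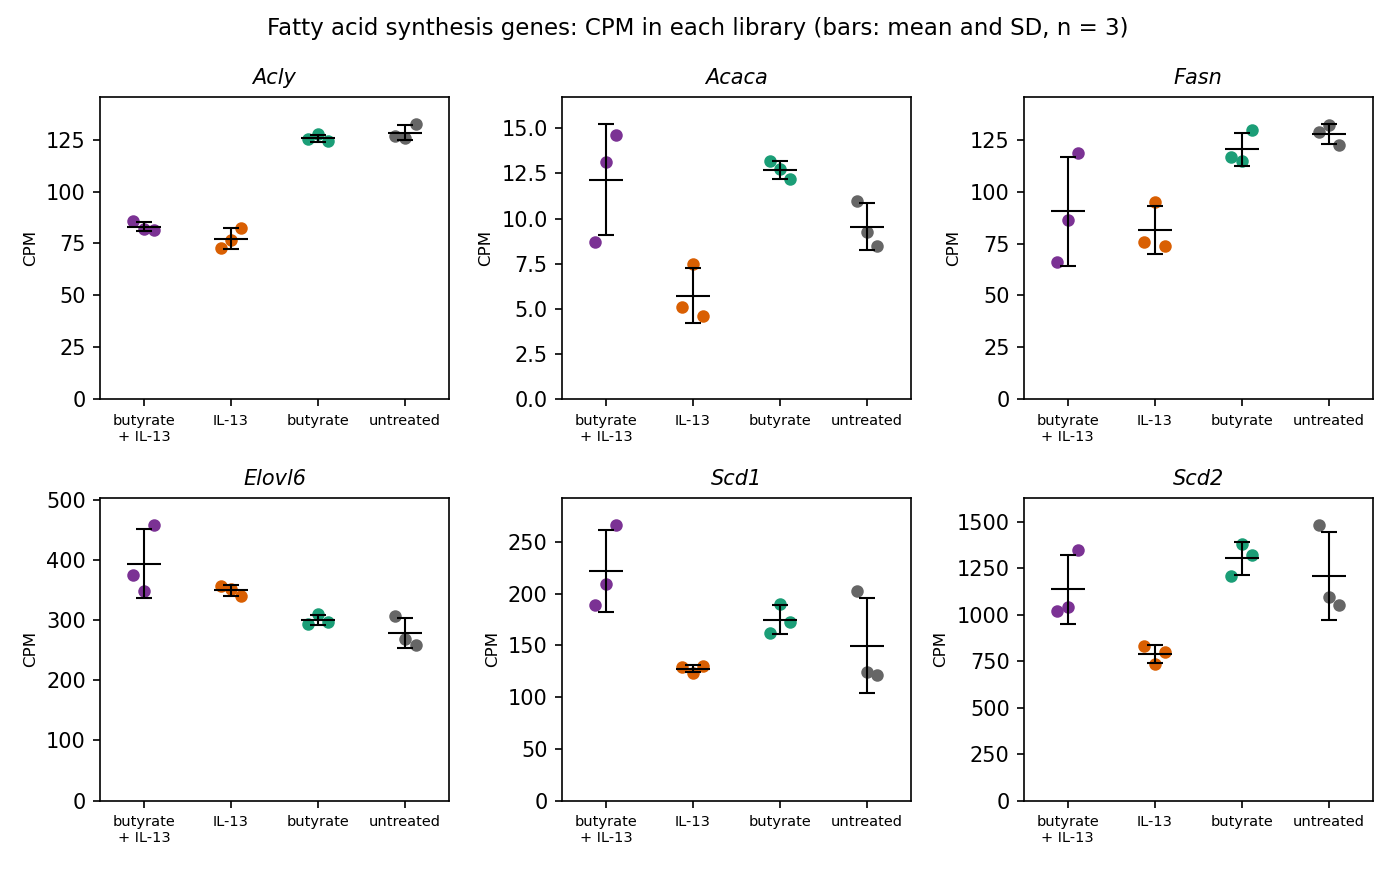
CPM of the 6 fatty acid enzymes in each library (points), by group, with the mean and SD of 3 libraries (bars); every axis starts at 0. Acly and Fasn have lower means in both groups with IL-13 than in untreated enteroids, Elovl6 has higher ones, and Acaca is lowest with IL-13 alone.

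Proliferation markers moved with these changes: all 11 were lower with IL-13, and their summed level was 284 to 390.2 CPM in IL-13 libraries, against 879 to 902 CPM in untreated libraries. Of the 10 absorptive enterocyte markers, 5 were higher and 1 lower, and their summed level was 7452 to 7923 CPM with IL-13, against 4922 to 5508 CPM untreated. Slc5a1 had the highest mean CPM of the 10 in every group and weighs most in that sum. It had 3330 ± 170 CPM with IL-13 and 1789 ± 151 CPM untreated (SD, n = 3 each). The part of either marker list in the lipid gene changes was not tested. In the authors' deposited table of the same comparison, 18 of the 29 genes had an FDR under 0.05. Of these, 17 were also called here, all 17 in the same direction. Both tests used counts of the same libraries, so the match is not independent support. Sqle (authors' DESeq FDR 0.0101) was not called here, and Fdps (authors' DESeq FDR 0.123) was called here only.

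Other genes of these pathways were read beside the 29. Of 12 further lipid genes linked to SREBP, 8 were lower and 1 higher with IL-13, beside 21.7% and 21.8% of all tested genes, and the median of the 12 log2 fold changes was -0.32. Me1, the malic enzyme that supplies NADPH, had 143, 114 and 111 CPM with IL-13, against 11.2, 9.27 and 8.64 CPM untreated, and was 12.6-fold higher (log2 fold change 3.65 ± 0.15 (SE), edgeR adjusted p = 1.69e-12). Fads1, a desaturase of polyunsaturated fatty acids, had 15.2, 18.5 and 26.2 CPM with IL-13, against 115, 97.8 and 98.8 CPM untreated (log2 fold change -2.38 ± 0.14 (SE), edgeR adjusted p = 4.64e-10), and Fads2, its partner, also fell (log2 fold change -1.84 ± 0.16 (SE), edgeR adjusted p = 5.96e-08). Aacs, which activates acetoacetate for lipid synthesis, fell too (log2 fold change -0.60 ± 0.13 (SE), edgeR adjusted p = 0.00124). Among further late sterol genes, Msmo1, the C4 methyl oxidase, rose (log2 fold change 0.47 ± 0.10 (SE), edgeR adjusted p = 0.000693), and Sc5d and Tmem97 were not called.

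Of 8 genes of SREBP cleavage and turnover, 2 were lower (25.0%) and 0 higher with IL-13, beside 21.7% of all tested genes lower. Mbtps1, the site-1 protease that makes the first cut in SREBP, fell by 34.5% (log2 fold change -0.61 ± 0.09 (SE), edgeR adjusted p = 1.83e-05). Erlin1, which acts in sterol-regulated protein degradation, fell by 33.6% (log2 fold change -0.59 ± 0.09 (SE), edgeR adjusted p = 3.71e-05). Of 12 tested genes of sterol uptake, export and storage, 6 were lower and 3 higher (25.0%), beside 21.7% and 21.8% of all tested genes. Npc1, which moves cholesterol out of lysosomes, rose (log2 fold change 0.69 ± 0.09 (SE), edgeR adjusted p = 1.06e-05), and so did the cholesterol acyltransferases Soat1 (log2 fold change 0.66 ± 0.11 (SE), edgeR adjusted p = 9.15e-05) and Soat2 (log2 fold change 0.60 ± 0.10 (SE), edgeR adjusted p = 9.17e-05). Abca1, the cholesterol exporter and a target of the sterol receptor LXR, fell to 4.96 ± 1.14 CPM with IL-13, against 12.8 ± 1.56 CPM untreated (SD, n = 3 each; log2 fold change -1.37 ± 0.23 (SE), edgeR adjusted p = 0.000112).

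The next comparison asked what butyrate did in the presence of IL-13. It shares its IL-13 libraries with the first comparison, where they stand on the other side, so the 2 results are not independent. With butyrate added, 8 of the 29 genes rose and 0 fell: among all tested genes 21.2% were called, 9.85% higher and 11.3% lower. Of the 29 genes, 25 had a positive fold change; the 29 had a median log2 fold change of 0.22, beside -0.01 over all tested genes. By group, 4 of 17 sterol enzymes, 1 of 6 machinery genes and 3 of 6 fatty acid enzymes were called higher. Under plain library totals, with a median of -0.14 over all tested genes, 20 of the 29 were positive, 4 were called higher and 2 lower, Scap (-0.40, adjusted p = 0.0154) and Srebf1 (-0.30, adjusted p = 0.0300; over all alternatives 0.03 to 0.594). Fatty acid enzymes had a median of 0.35 and sterol enzymes of 0.24 (on the log2 scale), and both stayed positive when libraries were scaled by their plain totals (0.22 and 0.11), while that of the machinery was 0.11 and became -0.02.

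Acaca differed most. It had 8.70, 13.1 and 14.6 CPM with butyrate + IL-13, against 5.12, 7.48 and 4.63 CPM with IL-13, and was 2.12-fold higher (log2 fold change 1.08 ± 0.21 (SE), edgeR adjusted p = 0.00118). Scd1 had 189, 209.8 and 266 CPM with butyrate + IL-13, against 129, 124 and 129.7 CPM with IL-13, and was 1.74-fold higher (log2 fold change 0.80 ± 0.16 (SE), edgeR adjusted p = 0.00149). Scd2 had 1018, 1038 and 1347 CPM with butyrate + IL-13, against 831, 736 and 800.2 CPM with IL-13 (log2 fold change 0.52 ± 0.12 (SE), edgeR adjusted p = 0.00554). In each of the 3 genes the lowest library with both agents lay above the highest IL-13 library, and each call held in every alternative run. Acly (0.10 ± 0.08), Fasn (0.15 ± 0.15) and Elovl6 (0.17 ± 0.09, log2 fold changes ± SE) were not called. Fasn had 66.3, 86.4 and 119 CPM with butyrate + IL-13, values so far apart that they spanned the whole IL-13 range of 73.9 to 94.9 CPM.

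Among sterol enzymes, Hmgcs1 had 770.0, 634 and 787 CPM with butyrate + IL-13, against 561, 537 and 563 CPM with IL-13, with no overlap. It rose (log2 fold change 0.40 ± 0.09 (SE), edgeR adjusted p = 0.00536) and held its call in every alternative run. Pmvk had 80.6, 79.5 and 100.4 CPM with butyrate + IL-13, against 66.5, 65.1 and 58.8 CPM with IL-13, and rose (log2 fold change 0.45 ± 0.12 (SE), edgeR adjusted p = 0.0145). The Pmvk call was lost under plain library totals (0.054), without IL-13 replicate 3 (0.0738) or without butyrate + IL-13 replicate 3 (0.0756), over a range of 0.00193 to 0.0756. Lss had 113, 116 and 146 CPM with butyrate + IL-13, against 95.7, 101 and 97.9 CPM with IL-13 (log2 fold change 0.35 ± 0.09 (SE), edgeR adjusted p = 0.0109), and Cyp51 had 642, 556 and 718 CPM, against 547, 481 and 486 CPM (log2 fold change 0.34 ± 0.10 (SE), edgeR adjusted p = 0.0184). Both rose with no overlap, with butyrate + IL-13 replicate 3 the highest library in each. The Lss call was lost under plain library totals (0.0668), without both Lars2-high libraries (0.0608) or without butyrate + IL-13 replicate 3 (0.0579), over a range of 0.00124 to 0.0668. The Cyp51 call was lost under plain library totals (0.0992), without both Lars2-high libraries (0.0767), without IL-13 replicate 2 (0.0814), without IL-13 replicate 3 (0.079) or without butyrate + IL-13 replicate 3 (0.0889), over a range of 0.00347 to 0.0992.

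Insig1 was the machinery gene that rose, with 281, 297 and 389 CPM with butyrate + IL-13, against 241, 229.8 and 251 CPM with IL-13 (log2 fold change 0.42 ± 0.12 (SE), edgeR adjusted p = 0.0172). Its highest value was in butyrate + IL-13 replicate 3, one of the libraries high in Lars2. The Insig1 call was lost under plain library totals (0.0663), without both Lars2-high libraries (0.0582), without IL-13 replicate 1 (0.0535), without IL-13 replicate 2 (0.0713) or without butyrate + IL-13 replicate 3 (0.102), over a range of 0.00316 to 0.102. Without both Lars2-high libraries, 2 of 17 sterol enzymes and 3 of 6 fatty acid enzymes were called higher in this comparison.

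Several genes lay close to the threshold. Sqle had 403 to 465 CPM with butyrate + IL-13, against 339.6 to 381 CPM with IL-13 (log2 fold change 0.24 ± 0.09 (SE), edgeR adjusted p = 0.0751), Stard4 had 505 to 616 CPM, against 446 to 473 CPM (log2 fold change 0.26 ± 0.09 (SE), edgeR adjusted p = 0.0557), and neither pair of groups overlapped. Fdft1 had 43.9 to 49.4 CPM with butyrate + IL-13, against 32.7 to 44.1 CPM with IL-13 (log2 fold change 0.30 ± 0.11 (SE), edgeR adjusted p = 0.0648). DESeq2 called these 3 genes higher as well, giving 6 sterol enzymes and 2 machinery genes in place of 4 and 1. Fdps, at 3.58 to 4.39 CPM with butyrate + IL-13, against 2.06 to 3.32 CPM with IL-13, did not overlap either (log2 fold change 0.59 ± 0.24 (SE), edgeR adjusted p = 0.082). The remaining sterol enzymes had log2 fold changes from -0.12 ± 0.10 (Ebp) to 0.31 ± 0.15 (Acat2, with SE), and Scap, at -0.27 ± 0.11, had the most negative of the 29. None of these was called (edgeR adjusted p = 0.429 for Ebp, 0.15 for Acat2 and 0.0937 for Scap).

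Some calls here appeared with 1 library left out or with another fit. Sqle was called higher under RLE scaling (0.0486), in DESeq2 (0.0311), in a fit of only the groups compared (0.0479), without butyrate replicate 2 (0.0456), without butyrate replicate 3 (0.0312) or without butyrate + IL-13 replicate 1 (0.0416), over a range of 0.0311 to 0.389. Fdft1 was called higher under RLE scaling (0.046), in DESeq2 (0.0314), without IL-13 replicate 1 (0.0174) or without butyrate + IL-13 replicate 1 (0.0484), over a range of 0.0174 to 0.269. Acat2 was called higher without butyrate + IL-13 replicate 1 (0.0318), over a range of 0.0318 to 0.777. Fdps was called higher without IL-13 replicate 1 (0.0421), over a range of 0.0421 to 0.26. Stard4 was called higher under RLE scaling (0.0383), in DESeq2 (0.0223), in a fit of only the groups compared (0.0336), without butyrate replicate 2 (0.0264), without butyrate replicate 3 (0.0282) or without butyrate + IL-13 replicate 2 (0.0325), over a range of 0.0223 to 0.304. Scap was called lower under plain library totals (0.0154), without butyrate replicate 2 (0.0426) or without butyrate replicate 3 (0.0391), over a range of 0.0154 to 0.329.

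**Figure D4:**
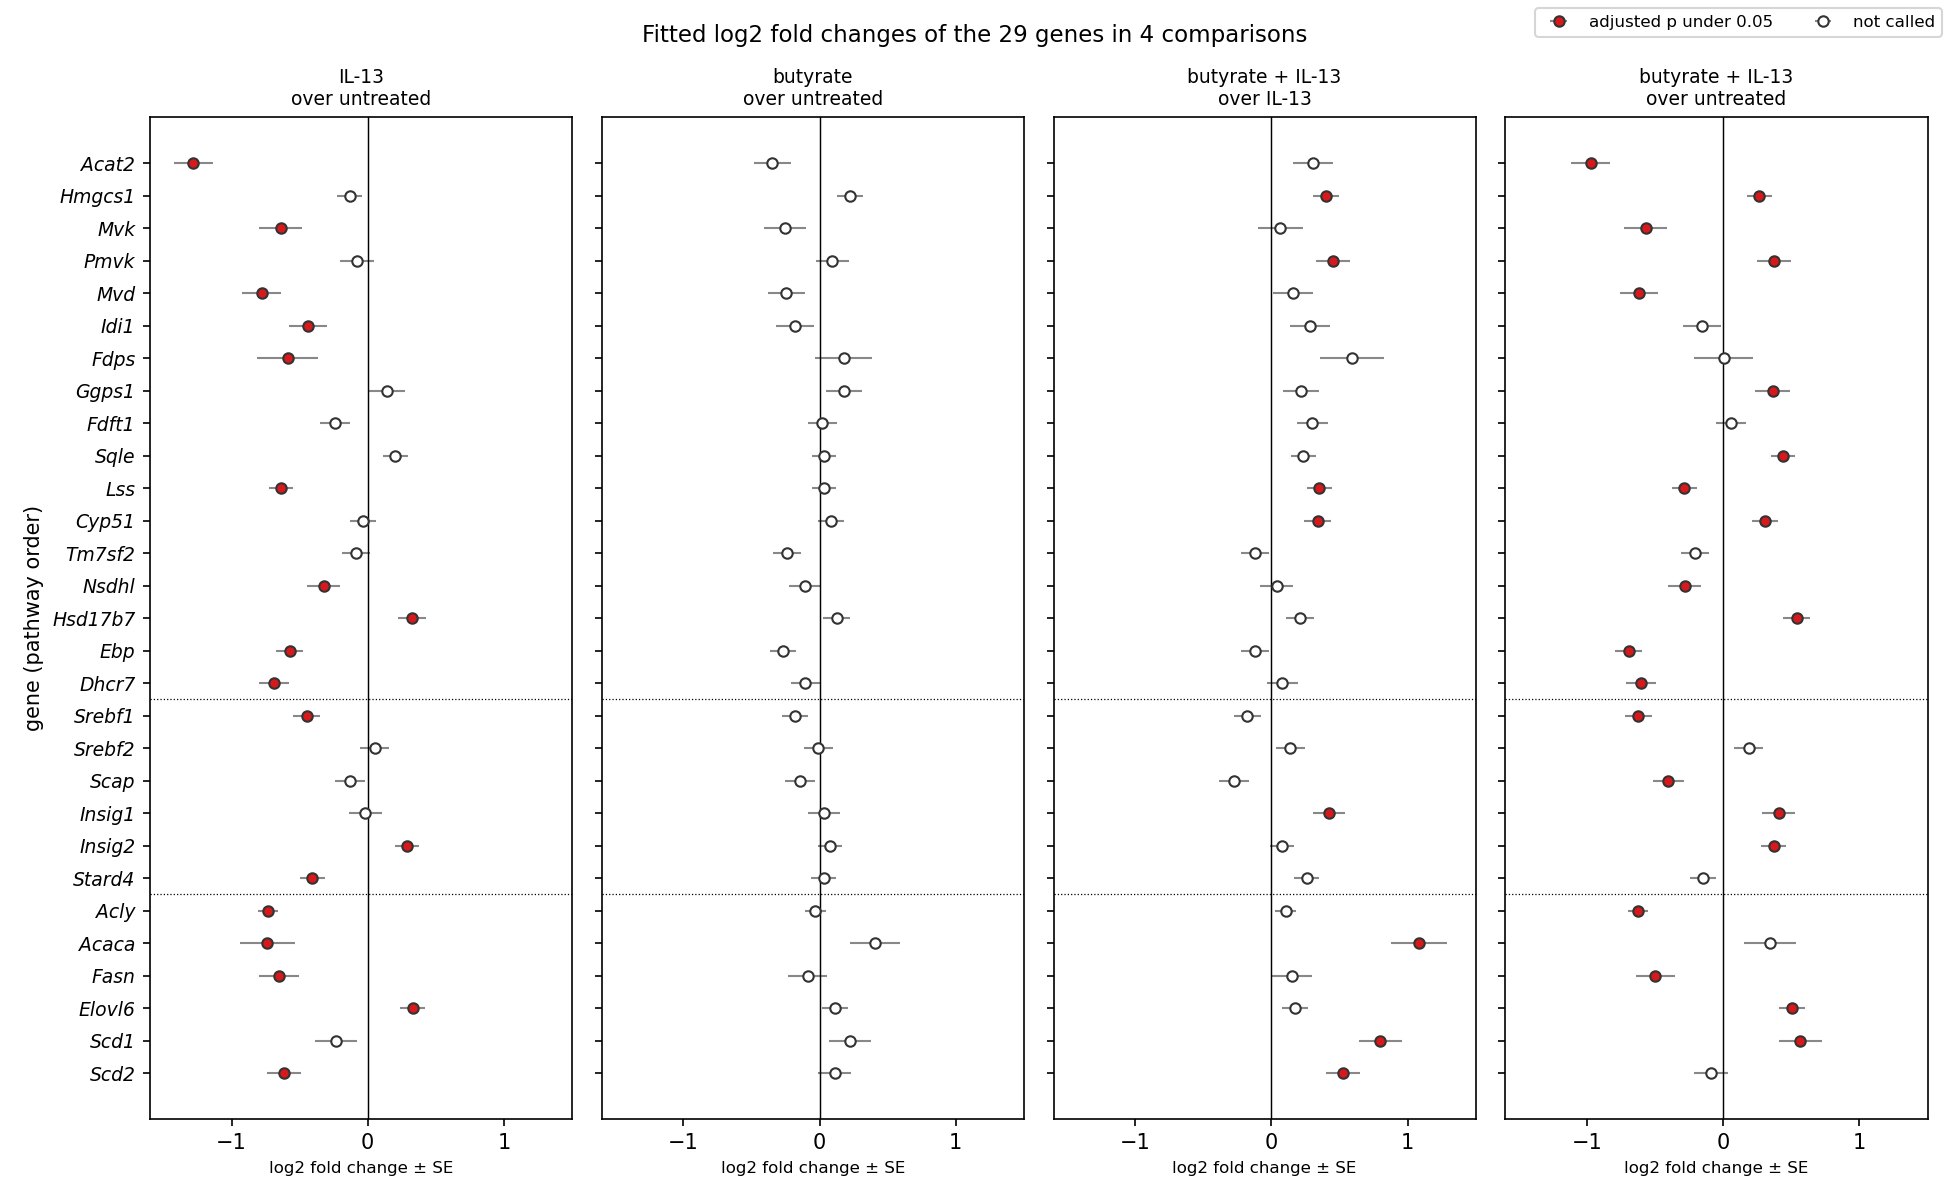
Fitted log2 fold change (point) ± SE (line) of each of the 29 genes in 4 comparisons, with genes in pathway order and dotted lines between sterol enzymes, machinery and fatty acid enzymes; filled points have an adjusted p under 0.05. With IL-13 alone 15 filled points lie left of 0, whereas all 8 filled points of butyrate + IL-13 over IL-13 lie right of it. Both comparisons use the same IL-13 libraries, on opposite sides, and are not independent.

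Beside these rises, 7 of 11 proliferation markers were lower with butyrate + IL-13 than with IL-13, with a summed level of 215 to 243 CPM, against 284 to 390.2 CPM. Absorptive enterocyte markers summed to 8774 to 11700.0 CPM with butyrate + IL-13, against 7452 to 7923 CPM with IL-13; 5 of 10 were higher and 2 lower. The part of either in the lipid gene changes was not tested. Among the neighbouring genes, Sc5d, the lathosterol oxidase, rose (log2 fold change 0.58 ± 0.09 (SE), edgeR adjusted p = 0.000175), as did Msmo1 (log2 fold change 0.47 ± 0.10 (SE), edgeR adjusted p = 0.00177) and Soat2 (log2 fold change 0.47 ± 0.10 (SE), edgeR adjusted p = 0.00279). Of the 12 lipid genes linked to SREBP, 4 were higher (33.3%, beside 9.85% of all tested genes) and 1, Fads1, was lower (log2 fold change -0.59 ± 0.16 (SE), edgeR adjusted p = 0.013).

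The effect of butyrate alone was read against untreated enteroids. With butyrate, 0 of the 29 genes were called by edgeR or DESeq2, where 7.9% of all tested genes were called, 5.14% higher and 2.76% lower. At an unadjusted p under 0.05 there were 5 genes: Hmgcs1 and Acaca higher, and Acat2, Tm7sf2 and Ebp lower. Ebp came closest, with 41.6, 35.3 and 38.6 CPM in butyrate libraries, against 45.9, 44.6 and 49.03 CPM in untreated libraries (log2 fold change -0.27 ± 0.10 (SE), edgeR adjusted p = 0.0962). The groups did not overlap for Acat2, at 70.1, 72.8 and 76.5 CPM with butyrate, against 109, 88.7 and 80.7 CPM untreated (log2 fold change -0.35 ± 0.14 (SE), edgeR adjusted p = 0.146). They did not overlap for Acaca either, at 13.2, 12.7 and 12.2 CPM with butyrate, against 10.97, 9.23 and 8.48 CPM untreated (log2 fold change 0.41 ± 0.19 (SE), edgeR adjusted p = 0.212). Tm7sf2 had 29.2 to 35.8 CPM with butyrate and 35.96 to 39.1 CPM untreated (log2 fold change -0.24 ± 0.10 (SE), edgeR adjusted p = 0.172), again apart, while the Hmgcs1 groups overlapped, at 705, 785 and 636 CPM with butyrate and 641, 604 and 576 CPM untreated (log2 fold change 0.22 ± 0.09 (SE), edgeR adjusted p = 0.17).

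The 29 fold changes with butyrate alone split into 16 positive and 13 negative around a median of 0.03, beside -0.01 over all tested genes; under plain library totals 11 were positive and the median was -0.03. Both Srebf2 (-0.01 ± 0.11) and Insig1 (0.03 ± 0.12, log2 fold changes ± SE) were close to 0. Ebp was called lower under plain library totals (0.0429), over a range of 0.0429 to 0.318. Leaving out 1 library gave calls to 5 more genes. Without butyrate replicate 3, Hmgcs1 was called higher (adjusted p = 0.0423, over a range of 0.0423 to 0.455), Mvd lower (0.0137, over 0.0137 to 0.693) and Srebf1 lower (0.0473, over 0.0473 to 0.662). Acat2 was called lower without butyrate + IL-13 replicate 3 (0.0453), over a range of 0.0453 to 0.475. Scd1 was called higher without untreated replicate 1 (0.0172), the library with the highest untreated value, over a range of 0.0172 to 0.857. Absorptive enterocyte markers summed to 6857 to 7474 CPM with butyrate, against 4922 to 5508 CPM untreated, with 5 of 10 higher and 1 lower, and 0 of 11 proliferation markers were called. The part of either was not tested. Among neighbouring genes Soat2 rose (log2 fold change 0.58 ± 0.10 (SE), edgeR adjusted p = 0.00112), and Fads1 (log2 fold change -0.74 ± 0.13 (SE), edgeR adjusted p = 0.00148), Npc2 (log2 fold change -0.34 ± 0.08 (SE), edgeR adjusted p = 0.00709) and Me1 (log2 fold change -0.65 ± 0.17 (SE), edgeR adjusted p = 0.0186) fell.

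Whether butyrate acted differently with and without IL-13 was tested as an interaction, the log2 change with butyrate in the presence of IL-13 minus that in its absence. None of the 29 genes was called by edgeR or DESeq2, where 0.865% of all tested genes were called, 0.255% positive and 0.611% negative. Thus the 8 rises over IL-13 and the 0 calls for butyrate alone are not shown to differ gene by gene. The interaction uses the same libraries as those comparisons, so the signs below are not independent of them. The estimates were positive for 28 of the 29 genes, Scap being the exception, with a median of 0.23 on the log2 scale, beside -0.02 over all tested genes. Under plain library totals 24 of 29 were positive, with a median of 0.17. At an unadjusted p under 0.05 there were 7 genes, all positive: Acat2, Idi1, Lss, Insig1, Acaca, Scd1 and Scd2.

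The largest interaction estimates were those of Acaca (0.68 ± 0.28, edgeR adjusted p = 0.363) and Acat2 (0.66 ± 0.20, edgeR adjusted p = 0.173; log2 ± SE). For Acat2, butyrate went with a log2 difference of 0.31 ± 0.15 with IL-13 present and -0.35 ± 0.14 with IL-13 absent. For Acaca the differences were 1.08 ± 0.21 and 0.41 ± 0.19 in the same order, and for Scd1 0.80 ± 0.16 and 0.22 ± 0.16 (SE). Acat2 alone was called in the interaction without butyrate + IL-13 replicate 1 (0.0468), over a range of 0.0468 to 0.396. In that library Acat2 had 38.2 CPM, the lowest of the 3 with both agents.

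This comparison shares its untreated libraries with those of IL-13 and of butyrate alone. Set against untreated enteroids, enteroids given both agents had 10 of the 29 genes higher and 11 lower: among all tested genes 59.7% were called, 28.2% higher and 31.5% lower. The sterol enzymes split into 6 higher and 7 lower of 17, the machinery into 2 and 2 of 6, and the fatty acid enzymes into 2 and 2 of 6. The median log2 fold change of the 29 was -0.09, beside -0.05 over all tested genes. Scaling by plain library totals moved the median of all tested genes to -0.34 and that of the 29 to -0.38; with it 2 of the 29 were called higher and 15 lower.

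The sterol enzymes that were lower with both agents were Acat2 (log2 fold change -0.97 ± 0.14 (SE), edgeR adjusted p = 1.25e-05), Mvk (log2 fold change -0.57 ± 0.16 (SE), edgeR adjusted p = 0.00466), Mvd (log2 fold change -0.62 ± 0.14 (SE), edgeR adjusted p = 0.000973), Lss (log2 fold change -0.29 ± 0.09 (SE), edgeR adjusted p = 0.0118), Nsdhl (log2 fold change -0.28 ± 0.12 (SE), edgeR adjusted p = 0.0499), Ebp (log2 fold change -0.70 ± 0.10 (SE), edgeR adjusted p = 8.61e-06) and Dhcr7 (log2 fold change -0.61 ± 0.11 (SE), edgeR adjusted p = 0.000131). Acat2 had 38.2, 41.7 and 62.1 CPM with both agents, against 109, 88.7 and 80.7 CPM untreated, so its highest treated library stayed below its lowest untreated one. Ebp had 26.6, 31.7 and 27.9 CPM with both agents, against 45.9, 44.6 and 49.03 CPM untreated, again without overlap. The Lss call was lost without butyrate + IL-13 replicate 1 (0.12) or without butyrate + IL-13 replicate 2 (0.0604), over a range of 1.14e-05 to 0.12. Nsdhl stood at the edge of the threshold and lost its call under RLE scaling (0.0797), in DESeq2 (0.0821), in a fit of only the groups compared (0.063), without untreated replicate 1 (0.186), without untreated replicate 2 (0.0581), without untreated replicate 3 (0.0676), without butyrate replicate 1 (0.0553), without IL-13 replicate 1 (0.0596), without IL-13 replicate 2 (0.0566), without IL-13 replicate 3 (0.0613), without butyrate + IL-13 replicate 1 (0.144) or without butyrate + IL-13 replicate 2 (0.259), over a range of 0.000265 to 0.259.

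Those that were higher were Hmgcs1 (log2 fold change 0.27 ± 0.09 (SE), edgeR adjusted p = 0.0202), Pmvk (log2 fold change 0.37 ± 0.12 (SE), edgeR adjusted p = 0.0143), Ggps1 (log2 fold change 0.36 ± 0.13 (SE), edgeR adjusted p = 0.0241), Sqle (log2 fold change 0.44 ± 0.09 (SE), edgeR adjusted p = 0.000453), Cyp51 (log2 fold change 0.31 ± 0.10 (SE), edgeR adjusted p = 0.0113) and Hsd17b7 (log2 fold change 0.54 ± 0.10 (SE), edgeR adjusted p = 0.000193). Hsd17b7 had 150.4, 132 and 139.7 CPM with both agents, against 112, 88.00 and 90.1 CPM untreated, and Sqle had 403, 418 and 465 CPM, against 340.3, 313 and 296 CPM. Neither gene's groups overlapped. Of these 6, Hsd17b7 alone kept its call in every alternative run, and the other 5 lost theirs under plain library totals, where the Hmgcs1 fold change turned to -0.03. The Hmgcs1 call was also lost without untreated replicate 2 (0.0568), without untreated replicate 3 (0.0845) or without butyrate + IL-13 replicate 3 (0.0559) and without both Lars2-high libraries (0.0503), over a range of 0.00337 to 0.802. The Pmvk call was also lost without butyrate + IL-13 replicate 3 (0.0626), over a range of 0.00218 to 0.574. The Ggps1 call was also lost without untreated replicate 2 (0.0868), without untreated replicate 3 (0.112), without butyrate + IL-13 replicate 1 (0.0654) or without butyrate + IL-13 replicate 3 (0.0533), over a range of 0.00666 to 0.654. The Cyp51 call was also lost without untreated replicate 2 (0.0519) or without untreated replicate 3 (0.0623) and without both Lars2-high libraries (0.0589), over a range of 0.00231 to 0.917. For Sqle the adjusted p was 0.149 under plain library totals, over a range of 2.84e-06 to 0.149. Idi1 (-0.16 ± 0.14), Fdps (0.00 ± 0.22), Fdft1 (0.06 ± 0.11) and Tm7sf2 (-0.21 ± 0.10, log2 fold changes ± SE) were not called. Tm7sf2 was called lower under plain library totals (0.000392) or without butyrate + IL-13 replicate 2 (0.0415), over a range of 0.000392 to 0.397. Idi1 was called lower under plain library totals (0.00944), over a range of 0.00944 to 0.639.

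In the machinery, Srebf1 had 51.6, 56.5 and 62.1 CPM with both agents, against 89.4, 85.3 and 87.98 CPM untreated, and fell by 35.2% (log2 fold change -0.63 ± 0.10 (SE), edgeR adjusted p = 3.21e-05). Scap had 50.2, 52.6 and 46.2 CPM with both agents, against 67.2, 67.8 and 61.9 CPM untreated, and fell as well (log2 fold change -0.40 ± 0.11 (SE), edgeR adjusted p = 0.00453). Insig1 (log2 fold change 0.41 ± 0.12 (SE), edgeR adjusted p = 0.00698) and Insig2 (log2 fold change 0.37 ± 0.09 (SE), edgeR adjusted p = 0.00172) rose, while under plain library totals neither was called (0.404 for Insig1, over a range of 0.00111 to 0.404, and 0.46 for Insig2, over 4.98e-05 to 0.46). Srebf2, at 439.9, 522 and 510.0 CPM with both agents and 450.4, 411 and 430.4 CPM untreated, was not called (log2 fold change 0.19 ± 0.11 (SE), edgeR adjusted p = 0.133); it was called higher in a fit of only the groups compared (0.0378), without butyrate replicate 3 (0.0469) or without butyrate + IL-13 replicate 1 (0.029), over a range of 0.029 to 0.38. Stard4 was not called (log2 fold change -0.15 ± 0.09 (SE), edgeR adjusted p = 0.182) and was called lower under plain library totals (0.00032) or without both Lars2-high libraries (0.024), over a range of 0.00032 to 0.534.

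Among fatty acid enzymes, Acly had 85.7, 81.9 and 81.6 CPM with both agents, against 127, 126 and 133 CPM untreated, and fell (log2 fold change -0.63 ± 0.08 (SE), edgeR adjusted p = 1.17e-06). Elovl6 had 376, 348 and 458 CPM with both agents, against 306, 269 and 259 CPM untreated, and rose (log2 fold change 0.50 ± 0.10 (SE), edgeR adjusted p = 0.000179). Their groups were apart, in opposite directions, and both calls held in every alternative run. Fasn fell (log2 fold change -0.50 ± 0.15 (SE), edgeR adjusted p = 0.00699), but its call was lost without butyrate + IL-13 replicate 1 (0.0639), over a range of 1.95e-05 to 0.0639. Scd1 rose (log2 fold change 0.57 ± 0.16 (SE), edgeR adjusted p = 0.0044) although its groups overlapped, at 189, 209.8 and 266 CPM with both agents and 203, 125 and 121 CPM untreated. The Scd1 call was lost under plain library totals (0.117), in a fit of only the groups compared (0.0551) or without both Lars2-high libraries (0.0526), over a range of 1.66e-05 to 0.117. Acaca (0.35 ± 0.19) and Scd2 (-0.09 ± 0.12, log2 fold changes ± SE) were not called, and Acaca was called higher without butyrate + IL-13 replicate 1 (0.0128), over a range of 0.0128 to 0.825. Scd2 was called lower under plain library totals (0.0079), over a range of 0.0079 to 0.914. All 11 proliferation markers were lower here too, at a summed 215 to 243 CPM with both agents, against 879 to 902 CPM untreated. Of the 10 absorptive enterocyte markers, 7 were higher and 1 lower, summing to 8774 to 11700.0 CPM with both agents, against 4922 to 5508 CPM untreated. Of the 7 epithelial markers, 6 were higher, with a median log2 fold change of 0.38. The part of these lists was not tested.

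The last comparison set both agents against butyrate alone, which gives the change with IL-13 in the presence of butyrate. Here 5 of the 29 genes rose and 8 fell, where 47.7% of all tested genes were called, 22.9% higher and 24.9% lower. The median log2 fold change was -0.06 over the 29, beside -0.04 over all tested genes; under plain library totals these medians were -0.29 and -0.27, with 0 genes called higher and 13 lower. Acat2 (log2 fold change -0.63 ± 0.14 (SE), edgeR adjusted p = 0.0015), Ebp (log2 fold change -0.42 ± 0.10 (SE), edgeR adjusted p = 0.00181), Dhcr7 (log2 fold change -0.50 ± 0.11 (SE), edgeR adjusted p = 0.00114), Srebf1 (log2 fold change -0.44 ± 0.10 (SE), edgeR adjusted p = 0.00131) and Acly (log2 fold change -0.60 ± 0.08 (SE), edgeR adjusted p = 3.54e-06) fell and kept their calls in every alternative run. Acly had 85.7, 81.9 and 81.6 CPM with both agents, against 125, 128 and 124 CPM with butyrate, so the groups were wide apart. Dhcr7 had 66.6, 81.5 and 83.6 CPM with both agents, against 107, 97.1 and 124 CPM with butyrate, without overlap. All 11 proliferation markers were lower as well, at a summed 215 to 243 CPM with both agents, against 758 to 857 CPM with butyrate. Of the 10 absorptive enterocyte markers, 5 were higher and 1 lower, summing to 8774 to 11700.0 CPM with both agents, against 6857 to 7474 CPM with butyrate, and 5 of 7 epithelial markers were higher. The part of these lists was not tested.

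Mvd (log2 fold change -0.38 ± 0.14 (SE), edgeR adjusted p = 0.0348), Lss (log2 fold change -0.32 ± 0.09 (SE), edgeR adjusted p = 0.00798) and Fasn (log2 fold change -0.41 ± 0.15 (SE), edgeR adjusted p = 0.0271) also fell, with less secure calls. The Mvd call was lost in a fit of only the groups compared (0.112), with libraries thinned to the lowest total (0.0549), without butyrate replicate 3 (0.243) or without butyrate + IL-13 replicate 1 (0.223), over a range of 0.00123 to 0.243. The Lss call was lost in a fit of only the groups compared (0.0519) or without butyrate + IL-13 replicate 1 (0.0711), over a range of 3.47e-05 to 0.0711. The Fasn call was lost with no filter (0.0525), in a fit of only the groups compared (0.0762), without butyrate replicate 2 (0.0583), without butyrate replicate 3 (0.115), without butyrate + IL-13 replicate 1 (0.194) or without butyrate + IL-13 replicate 2 (0.0803), over a range of 0.000182 to 0.194.

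Sqle (log2 fold change 0.41 ± 0.09 (SE), edgeR adjusted p = 0.0013), Hsd17b7 (log2 fold change 0.41 ± 0.10 (SE), edgeR adjusted p = 0.00277), Elovl6 (log2 fold change 0.39 ± 0.09 (SE), edgeR adjusted p = 0.00237), Insig1 (log2 fold change 0.38 ± 0.12 (SE), edgeR adjusted p = 0.0148) and Insig2 (log2 fold change 0.29 ± 0.09 (SE), edgeR adjusted p = 0.0116) rose, and under plain library totals all 5 stayed positive but none was called. Their adjusted p then was 0.0928 for Sqle (over 2.58e-05 to 0.0928), 0.134 for Hsd17b7 (over 0.000297 to 0.134), 0.137 for Elovl6 (over 0.000135 to 0.137), 0.294 for Insig1 and 0.558 for Insig2. The Insig1 call was also lost in a fit of only the groups compared (0.0513), without butyrate replicate 1 (0.0683), without butyrate replicate 2 (0.0581) or without butyrate + IL-13 replicate 3 (0.0899), over a range of 0.000578 to 0.341. Without both Lars2-high libraries the adjusted p was 0.341 for Insig1 and 0.114 for Insig2 (over 0.0018 to 0.558).

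A further 9 genes, not called, gained a call in some alternative, 7 of them when 1 library was left out. Mvk was called lower under plain library totals (0.00681), without both Lars2-high libraries (0.011) or without butyrate replicate 2 (0.0198), over a range of 0.00681 to 0.495. Pmvk was called higher under RLE scaling (0.0456), in DESeq2 (0.0432), without butyrate replicate 3 (0.00202) or without butyrate + IL-13 replicate 1 (0.0358), over a range of 0.00202 to 0.827. Cyp51 was called higher under RLE scaling (0.0417), in DESeq2 (0.0339) or without butyrate + IL-13 replicate 2 (0.0161), over a range of 0.0161 to 0.944. Nsdhl was called lower under plain library totals (0.00631) or without both Lars2-high libraries (0.0363), over a range of 0.00631 to 0.717. Srebf2 was called higher without butyrate replicate 3 (0.00389) or without butyrate + IL-13 replicate 1 (0.036), over a range of 0.00389 to 0.815. Scap was called lower under plain library totals (0.00136), with a minimum mean of 50 counts (0.05), without both Lars2-high libraries (0.0265) or without butyrate replicate 2 (0.00636), over a range of 0.00136 to 0.3. Stard4 was called lower under plain library totals (0.000947) or without butyrate replicate 3 (0.0401), over a range of 0.000947 to 0.435. Scd1 was called higher in a fit of only the groups compared (0.0429), without untreated replicate 1 (0.0139) or without butyrate + IL-13 replicate 1 (0.0261), over a range of 0.0139 to 0.55. Scd2 was called lower under plain library totals (0.00468), over a range of 0.00468 to 0.568.

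Across the 4 groups, Acat2 means were 47.3 ± 12.9 CPM with both agents, 38.3 ± 0.858 CPM with IL-13, 73.1 ± 3.25 CPM with butyrate and 92.9 ± 14.9 CPM untreated (SD, n = 3 each). The summed level of the 17 sterol enzymes was 2552 ± 236 CPM with both agents, 2075 ± 72.7 CPM with IL-13, 2401 ± 56.4 CPM with butyrate and 2303 ± 167 CPM untreated. Hmgcs1, Cyp51 and Sqle had the highest CPM of the 17 in every group and weigh most in that sum. For the 6 fatty acid enzymes the sums were 1936 ± 304 CPM with both agents, 1430.0 ± 40.1 CPM with IL-13, 2038 ± 109 CPM with butyrate and 1901 ± 309 CPM untreated. IL-13 libraries had the lowest sum and the smallest spread of the fatty acid enzymes. The sums of the 6 machinery genes were 1563 ± 140.4 CPM with both agents and 1358 ± 40.2 CPM with IL-13. They were 1513 ± 85.7 CPM with butyrate and 1510.0 ± 83.3 CPM untreated. Stard4, the sterol carrier, and Srebf2 had the highest mean CPM of the 6 machinery genes in every group. Under plain library totals, in the same group order, the sterol sums were 2279 ± 171, 2023 ± 74.3, 2515 ± 50.7 and 2522 ± 159 CPM. The fatty acid sums were then 1727 ± 239, 1395 ± 41.3, 2135 ± 112 and 2080 ± 318 CPM. Those of the machinery were 1395 ± 101.5, 1324 ± 43.7, 1585 ± 77.8 and 1654 ± 79.0 CPM. Thus both agents had the highest sterol and machinery sums only after TMM scaling.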

How the data were processed

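Gene counts came from 12 RNA-seq libraries in 4 groups of 3. The deposited table holds raw counts per gene, aligned to mm10 per the submitters' processing notes; the aligner, the counting tool and its strand setting are not given in the sources used. Per the file headers, its genes are those with a corrected p-value below 1 in the authors' DESeq comparison of untreated with IL-13, so genes outside that set do not enter any background share. From that comparison the authors deposited a log2 fold change, a p-value and its FDR per gene, used only where named. Columns headed US were taken as the untreated libraries, from the header's US v IL-13 comparison and the sample titles.

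The 18092 rows were summed by symbol to 18068 genes (23 symbols had several rows), and edgeR's filterByExpr kept 13750. Counts were scaled by TMM and tested with edgeR 4.0.16 (glmQLFit, glmQLFTest; R 4.3.3) in 1 fit of all 12 libraries, with Benjamini-Hochberg adjustment over all 13750 genes per comparison and a threshold of 0.05. The spread between libraries of a group, which edgeR names the biological coefficient of variation (BCV), came to 10.2%, on 8 residual degrees of freedom. Despite that name it may be technical here. Library totals were 13867982 to 15618074 (butyrate + IL-13), 14239405 to 15008598 (IL-13), 17006538 to 24294456 (butyrate) and 16303915 to 22558599 (untreated). No replicate pair was identical: chi-square per degree of freedom was 3.82 to 35.8 over 12 pairs. The labels state no pairing by replicate number, so the main fit had no replicate block. Same-numbered libraries did not deviate together, but with 3 libraries per group this cannot settle the pairing.

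Alternatives were RLE scaling, plain library totals, DESeq2 1.42.0, other count filters, a replicate block, a fit restricted to the compared groups, libraries thinned to the lowest total, the 2 libraries high in Lars2 left out, and each library left out in turn. Scripts were tested on simulated data. The 29 genes and the other lists were chosen with earlier results of these data known. All 29 are named. Of each other list, at most the 4 genes with the smallest adjusted p in the comparison described are named. Exceptions are uncalled or defining genes named for completeness (Sc5d, Tmem97, Epcam, Ptprc, Csf1r, Itgam), Lars2, and Slc5a1, which weighs most in a marker sum. Msmo1 is listed under the older symbol Sc4mol. Some results of the other lists are not reported here. Per-kilobase levels used GENCODE M21 exon unions, which need not be the authors' annotation.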

Additional observations from a re-analysis of the deposited data

How the results depend on the processing

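The number of the 17 sterol enzymes called was 10 with IL-13 over untreated and ran from 6 (without untreated replicate 3) to 11 when each library was left out in turn. With butyrate + IL-13 over IL-13 it was 4, and 1 under plain library totals, 2 without both Lars2-high libraries, and 1 (without butyrate + IL-13 replicate 3) to 7 (without butyrate + IL-13 replicate 1) with 1 library left out. With butyrate over untreated it was 0, and 1 under plain library totals and 0 to 2 with 1 library left out, where the 6 fatty acid enzymes gave 0 to 1. With both agents it was 13 over untreated and 7 over butyrate, and ran from 9 to 13 and from 6 to 8 with 1 library left out, and from 10 to 13 and from 5 to 9 in the other alternatives. In the interaction 0 to 1 sterol enzymes and 0 fatty acid enzymes were called. The fatty acid count over IL-13 was 3 in each alternative. The cause of these changes was not tested.

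Plain library totals moved the median log2 fold change of all tested genes to -0.34 for both agents and -0.18 for IL-13, each over untreated, to -0.08 for butyrate over untreated, and to -0.14 over IL-13 and -0.27 over butyrate for both agents, and calls over all genes to 1822 higher and 4649 lower for IL-13 over untreated and 662 higher and 2689 lower for both over IL-13. Of the 29 genes in all 6 contrasts, Hmgcs1 alone reversed a called direction, at -0.028 (adjusted p = 0.802, over 0.00337 to 0.802) with both agents over untreated under plain library totals.

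Same-numbered libraries of different groups did not deviate together (r = -0.151 to 0.097 over 18 pairs, 0 above 0.1), and 2 of 12 libraries correlated best with their own number. With the replicate block, 5 sterol enzymes in place of 4 were called with butyrate + IL-13 over IL-13, the added gene being Fdft1 (adjusted p = 0.0498, over alternatives from 0.0174 to 0.269), and the block changed no other call among the 29. A fit of only the groups compared could not be made for the interaction, which uses all 4 groups. With libraries thinned to the lowest total, Fdps lost its call with IL-13 over untreated (0.0514, over 0.00983 to 0.175) and Mvd its call with both agents over butyrate (0.0549, over 0.00123 to 0.243), while Acaca, the lowest gene per kilobase, kept its call with IL-13.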

Other observations

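Of 12 tested genes of cholesterol transport and storage, 4 were higher (33.3%) and 5 lower (41.7%) with butyrate + IL-13 than in untreated enteroids, beside 28.2% and 31.5% of all tested genes, and 3 were not called. Npc1 had 69.6, 64.2 and 75.5 CPM with butyrate + IL-13, against 33.8, 34.7 and 31.9 CPM untreated (log2 fold change 1.06 ± 0.09 (SE), edgeR adjusted p = 2.43e-08). Soat2, which esterifies cholesterol in enterocytes, had 113, 119 and 97.9 CPM with butyrate + IL-13, against 47.2, 53.7 and 56.8 CPM untreated (log2 fold change 1.07 ± 0.10 (SE), edgeR adjusted p = 4.92e-08). Both genes rose with no overlap between the groups. Abca1 had 2.85, 1.67 and 3.88 CPM with butyrate + IL-13, against 14.04, 13.2 and 11.02 CPM untreated, and fell (log2 fold change -2.18 ± 0.25 (SE), edgeR adjusted p = 7.65e-07). Scarb1, a lipoprotein receptor, fell as well (log2 fold change -0.77 ± 0.12 (SE), edgeR adjusted p = 1.65e-05).

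The interaction was called positive for 1 of 12 lipid genes linked to SREBP and 1 of 12 tested sterol transport and storage genes. That was 8.33% of each list, beside 0.255% of all tested genes called positive. It was called for 0 of 4 late sterol genes and 0 of 8 genes of SREBP cleavage and turnover. Outside the 29 genes the alternatives were not read gene by gene, so these 2 calls have no such check. Me1 had a log2 interaction of 0.90 ± 0.21 (SE; edgeR adjusted p = 0.0471), with 163, 133 and 140.2 CPM with both agents, 143, 114 and 111 CPM with IL-13, 6.02, 7.74 and 4.76 CPM with butyrate and 11.2, 9.27 and 8.64 CPM untreated. Npc2, which hands cholesterol to Npc1, had a log2 interaction of 0.52 ± 0.11 (SE; edgeR adjusted p = 0.0213), with 263, 299 and 276 CPM with both agents, 251, 249 and 239 CPM with IL-13, 246, 230.0 and 251 CPM with butyrate and 296, 315 and 311 CPM untreated.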
